A study of Homo sapiens with 4 samples.

Results

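The genes at the centre of the epithelial-mesenchymal transition (EMT) were examined for H3K9la, a lactyl group carried by histone H3 at lysine 9. The cells were KYSE30, an established line of oesophageal squamous carcinoma. The genes are the transcription factor genes SNAI1, SNAI2, ZEB1, ZEB2, TWIST1 and TWIST2, the cadherin genes CDH1, CDH2 and CDH3, and the vimentin gene VIM, and they make up 10 of the 19974 protein-coding genes compared on chromosomes 1 to 22 and X. Every ChIP-seq region that overlapped one of these genes or lay within 50 kb of it was taken, which gave 75 of the 56875 regions of the sg3 list and 57 of the 40332 regions of the V2 list. The study has 4 samples, an anti-H3K9la ChIP and an input for each of 2 arms, named sg3 and V2, and 1 peak list per arm was analysed. The labels do not say what was done to the cells of each arm or whether a line is 1 clone. The title of the series names SIRT3, a sirtuin deacylase, as an eraser of the mark. With 1 list per arm there are no replicates, so the arms are described and not tested, and each difference below is one between 2 libraries. The labels and lists give no read totals, so the depth is unknown. Fold enrichment (ChIP signal over local background at the summit) and -log10 q are the authors' values and rank regions within their own list only.

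During EMT, epithelial cells loosen their junctions and take on a migratory, mesenchymal state. SNAI1 (Snail), SNAI2 (Slug), ZEB1 and ZEB2 are zinc finger repressors that bind E-box motifs, among them those of the CDH1 promoter, and TWIST1 and TWIST2 are basic helix-loop-helix factors that act in the same programme. CDH1 encodes E-cadherin, the main adhesion molecule of epithelial junctions, CDH3 encodes P-cadherin of basal squamous layers, CDH2 encodes N-cadherin of mesenchymal and neural cells, and VIM encodes the intermediate filament of mesenchymal cells. Lactylation of histones uses groups derived from lactate, and histone lactylation has been linked to active promoters and enhancers.

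The RefSeq promoter table (GRCh38.p14) holds 5 of the 10 genes. The sequences below are shown because ZEB1 was the only one of these 5 whose upstream bases were touched by a region, and ZEB2 and VIM serve beside it. Each is the 250 bases before a listed transcription start, read 5′ to 3′ on the strand of the gene. Capitals mark CAGGTG or CACCTG, the E-box core of the Snail and ZEB factors, which are the 2 strands of 1 motif and also match the wider CANNTG. ZEB1 has 7 listed starts, and the 3 lowest are shown (chr10:31318167-31318416, chr10:31318568-31318817 and chr10:31318966-31319215, plus strand), with ZEB2 (chr2:144520120-144520369, minus strand) and VIM (chr10:17227991-17228240, plus strand).
ZEB1 start at 31318417: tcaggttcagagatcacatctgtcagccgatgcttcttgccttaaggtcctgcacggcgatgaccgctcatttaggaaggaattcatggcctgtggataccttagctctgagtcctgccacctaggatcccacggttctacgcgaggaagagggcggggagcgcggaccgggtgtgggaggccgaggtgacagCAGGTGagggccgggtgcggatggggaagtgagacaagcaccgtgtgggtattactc
ZEB1 start at 31318818: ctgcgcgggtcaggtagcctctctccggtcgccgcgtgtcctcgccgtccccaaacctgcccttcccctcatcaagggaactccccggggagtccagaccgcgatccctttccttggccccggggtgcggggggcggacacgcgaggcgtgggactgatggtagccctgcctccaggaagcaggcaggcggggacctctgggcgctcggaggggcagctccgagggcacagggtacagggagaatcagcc
ZEB1 start at 31319216: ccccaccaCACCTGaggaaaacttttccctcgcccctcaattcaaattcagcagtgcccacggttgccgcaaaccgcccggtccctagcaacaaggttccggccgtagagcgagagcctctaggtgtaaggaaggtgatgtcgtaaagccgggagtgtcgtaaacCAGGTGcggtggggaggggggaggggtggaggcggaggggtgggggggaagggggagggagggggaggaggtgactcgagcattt
ZEB2 start at 144520119: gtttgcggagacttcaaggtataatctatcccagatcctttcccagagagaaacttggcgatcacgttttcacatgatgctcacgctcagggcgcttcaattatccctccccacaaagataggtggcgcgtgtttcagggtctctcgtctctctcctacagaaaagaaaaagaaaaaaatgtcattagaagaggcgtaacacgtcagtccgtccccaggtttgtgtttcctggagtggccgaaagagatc
VIM start at 17228241: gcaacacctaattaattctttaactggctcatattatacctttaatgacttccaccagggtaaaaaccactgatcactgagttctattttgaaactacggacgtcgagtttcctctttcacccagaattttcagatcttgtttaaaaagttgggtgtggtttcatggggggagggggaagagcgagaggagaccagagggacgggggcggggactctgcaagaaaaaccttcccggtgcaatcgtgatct

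The first ZEB1 sequence had 1 such E-box, the third had 2 and the second had 0, and the listed ZEB1 starts not shown had none. ZEB2 and VIM had none in these windows, and neither had TWIST2 nor CDH2. Of 22156 promoters of protein-coding genes of the same length, 17.1% held the motif and 58.1% held CANNTG. Of the 12 listed promoters of the 5 genes, 2 held the motif (16.7%), near the share over all promoters. The second ZEB1 sequence was the richest of the 5 shown in CG dinucleotides, with 21 and a GC content of 70.4%, against 8 and 46.0% for VIM and a median of 16 and 62.0% over all promoters. A match is a description of letters and no evidence of a bound factor.

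H3K9la near these 10 genes was concentrated on the neighbouring cadherin genes CDH3 and CDH1. Their joint window, 290 kb of chromosome 16, held 49 of the 75 sg3 regions (65.3%) and 44 of the 57 V2 regions (77.2%). This corresponds to 16.9 sg3 regions and 15.2 V2 regions per 100 kb, with 21.1% and 16% of the bases covered. The windows of the other 8 genes together held 1.76 sg3 regions and 0.880 V2 regions per 100 kb, with 1.25% and 0.493% of the bases covered. Over the windows of all protein-coding genes the densities were 2.53 and 1.80 regions per 100 kb and the covered portions 2.46% and 1.41%.

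**Figure D1:**
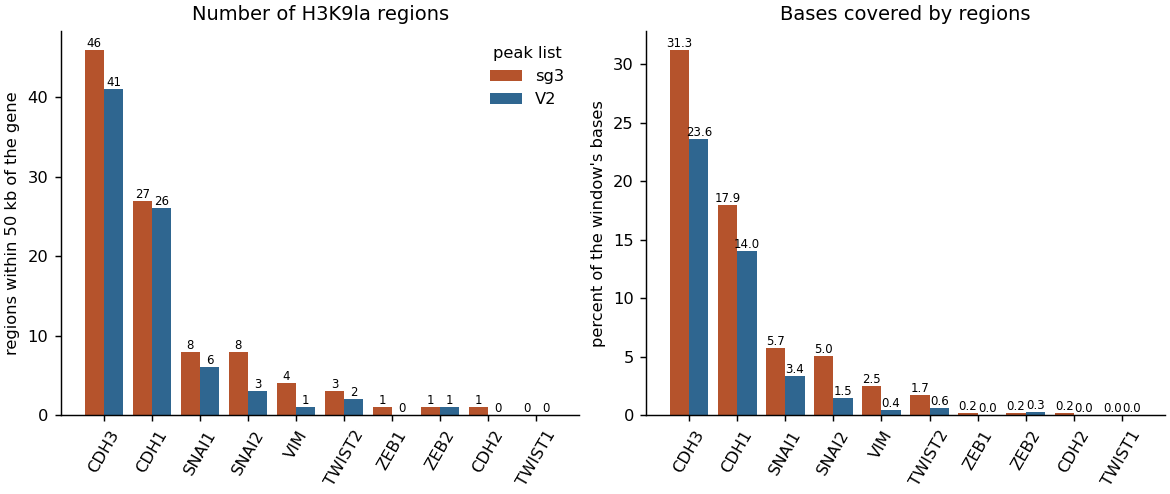
Number of H3K9la regions within 50 kb of each gene (left, counts) and percent of the bases of that window covered by regions (right), with 1 bar for the sg3 list and 1 for the V2 list and no error bars, as each list is 1 library. CDH3 with 46 and 41 regions and CDH1 with 27 and 26 stand above the other genes, whose counts range from 0 to 8; regions in both cadherin windows are counted under both.

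CDH1 carried regions from just below its lower-coordinate end, where its transcription begins, through the first part of the gene. The region at this end ran from 68737340 to 68739918 on chromosome 16 (hg38) in sg3, beginning 48 bases inside the gene. Its fold enrichment was 12.3 and its -log10 q 92.9, the highest among all 75 sg3 regions. In V2 the same stretch held 3 separate regions, the first from 68737324 to 68738637 (fold enrichment 5.16, -log10 q 27.8). The other strong sites of CDH1 lay about 19 kb into the gene. There the sg3 list had regions from 68752835 to 68756261 (-log10 q 86.7) and from 68756574 to 68763031 (85.9), and the V2 list had regions from 68752886 to 68756279 (93.6) and from 68756591 to 68758377 (79.8). These were the 2 strongest of the 57 V2 regions, with fold enrichments of 13.6 and 16, so within the V2 list the sites inside the gene ranked above the one at its start, whereas in sg3 the start ranked first by -log10 q.

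CDH3 showed a similar arrangement. A region crossed its lower-coordinate end, where its transcription begins, in both lists, from 68645254 to 68646749 in sg3 (fold enrichment 6.59, -log10 q 44.5) and from 68645308 to 68646568 in V2 (3.47, 15.3). The noncoding gene CDH3-AS1 (68644248 to 68646201) overlies this end, so the regions there belong to both. Among regions whose summit was nearest to CDH3, the strongest sg3 ones lay inside the gene, from 68664465 to 68668382 (fold enrichment 16.1, -log10 q 83.2) and from 68655433 to 68658687 (14.2, 80.9). The strongest V2 ones lay in the same part, from 68660573 to 68661210 (10.3, 58.6) and from 68669440 to 68672221 (10.7, 55.8).

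In both cadherin genes the covered bases lay mostly in the part next to the start. In the first 35 kb of CDH1, a length chosen after the map was seen, 61.6% of the bases were covered in sg3 and 51.3% in V2, with 14 and 16 summits. In the remaining 63.2 kb of the gene 5.31% and 3.08% were covered, with 5 and 3 summits. In CDH3 the first 35 kb had 56.6% covered in sg3 and 46.1% in V2, and the remaining 53.5 kb had 17.1% and 12%. The 3.52 kb between the genes held 2 summits in each list. No region of either list lay in the 50 kb above CDH1, and the highest-coordinate region on this map ended 34.1 kb inside the far end of CDH1 in sg3 and 35.3 kb inside it in V2. Between 2 neighbouring regions on this map, the widest gap was 25.8 kb in sg3, between 68676760 and 68702594 in CDH3, and 29.1 kb in V2, between 68766291 and 68795426 in CDH1. The only V2 region near any of the 10 genes without an sg3 partner lay in CDH1, from 68795427 to 68796224 (fold enrichment 3.95, -log10 q 6.16).

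**Figure D2:**
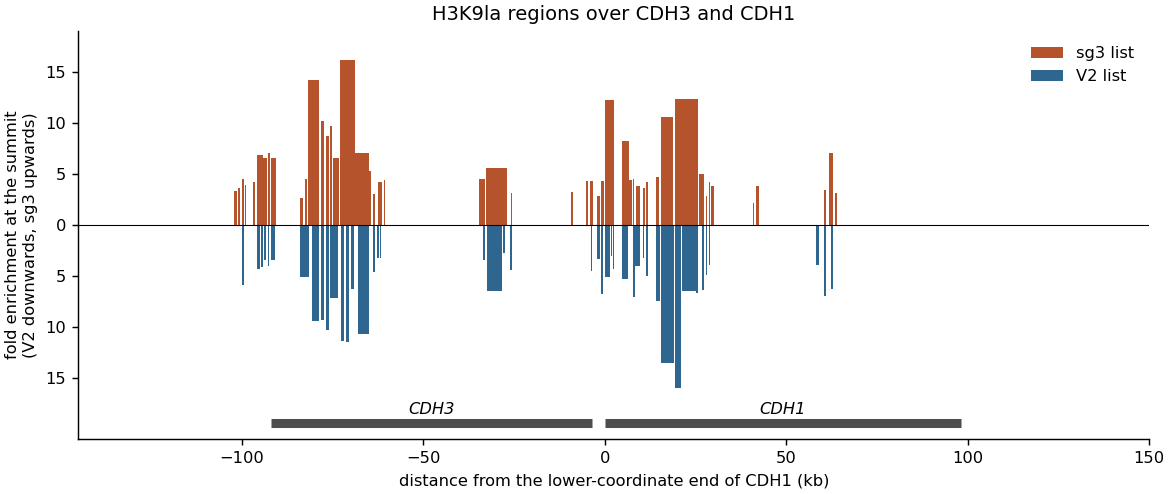
H3K9la regions over CDH3 and CDH1, with the distance from the lower-coordinate end of CDH1 in kb on the horizontal axis and the authors' fold enrichment on the vertical axis; bars drawn to width stand for sg3 regions (upwards) and V2 regions (downwards), and grey bars mark the genes. Regions of both lists gather in the part of each gene next to its lower-coordinate end, and none lies in the 50 kb above CDH1; heights are not comparable between lists.

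Among the transcription factor genes and VIM, the regions within 1 kb of a start were in the sg3 list alone. A gene was counted as marked when a region lay within 1 kb of a listed start, or of either end of the gene where no start was listed (SNAI1, SNAI2, TWIST1, CDH1 and CDH3). By this rule sg3 marked 6 of the 10 genes (60%, exact 95% CI 26.2 to 87.8%), where it marked 47.2% of all protein-coding genes. V2 marked 2 of 10, CDH1 and CDH3 (20%, 2.52 to 55.6%), where it marked 28.7% of all. Starts were listed for 5 of the 10 genes but for 15813 of all 19974, so the wider either-end rule weighs more among the 10. With either end used for every gene, sg3 again marked 6 and V2 2, and the background under that rule was not computed. The 4 genes marked in sg3 alone were SNAI1, SNAI2, ZEB1 and VIM. They are 4 of the 6 marked genes (66.7%, 22.3 to 95.7%), and the same share over all marked protein-coding genes was 39.7%. All 3 background shares lie inside the intervals of the members, so the counts do not set the 10 genes apart. At a -log10 q of at least 10, at a fold enrichment of at least 4 and in lists of equal length, SNAI1 and VIM dropped out and sg3 marked 4 genes.

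ZEB1 had a single sg3 region in a window of 311 kb, and it lay at the start. It ran from 31318446 to 31319015 on chromosome 10, from 29 bases inside the gene. Its fold enrichment was 6.84 and its -log10 q 34.1, the highest of the sg3 regions near the 10 genes that had no V2 partner. It covered the whole second ZEB1 sequence shown above and the first 50 bases of the third, including the E-box from 31318974 to 31318979, and it left out the E-boxes from 31318360 to 31318365 and from 31319131 to 31319136. The noncoding gene ZEB1-AS1 (31307717 to 31320447) overlies this stretch. The V2 list had no region within 50 kb of ZEB1, and its nearest ones were 184 kb below the gene and 337 kb above it.

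SNAI2, on chromosome 8 from 48917598 to 48921429, had regions on both sides and none over the gene itself. Its marking region in sg3 began 121 bases above the higher-coordinate end, where its transcription begins, and ran from 48921550 to 48921950 (fold enrichment 4.24, -log10 q 18.3), over the first bases of the noncoding gene LOC107986942. The 2 strongest sg3 regions flanked the gene, from 48923806 to 48924601 (11.0, 33.8) and from 48913486 to 48914090 (10.7, 33.1). Each had a V2 partner of modest rank, from 48923992 to 48924620 (5.09, 7.88) and from 48913568 to 48913954 (3.95, 6.16). The third V2 region, from 48915675 to 48916170 (5.47, 11.8), overlapped a region from 48915858 to 48916356 in sg3 (4.25, 10.2). In total 8 sg3 regions and 3 V2 regions lay near SNAI2. With a window of 2.5 kb V2 marked SNAI2 too, through the region 1428 bases below the lower-coordinate end, away from the start, while its region on the start side lay 2563 bases from the gene.

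SNAI1, on chromosome 20 from 49982980 to 49988886, had no region over the gene and a group of regions below it in both lists. The sg3 region nearest to it lay 766 bases below the lower-coordinate end, where its transcription begins, from 49981819 to 49982214 (fold enrichment 3.16, -log10 q 6.10), without a V2 partner. The strongest regions had their summits about 13 kb below that end, from 49969372 to 49970062 in sg3 (9.88, 45.9) and from 49969432 to 49970015 in V2 (11.0, 40.0). Next came a summit about 14 kb below it, at 49968647 in sg3 (7.58, 41.5) and at 49968639 in V2 (8.75, 27.3), 8 bases apart. These upstream sites were thus present in both lists with the same order of rank, and the one next to the start was in sg3 alone. SNAI1 had 8 sg3 and 6 V2 regions in its window, of which 3 in each list had RNF114 as the nearest protein-coding gene.

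VIM, on chromosome 10 from 17228241 to 17237593, had 4 sg3 regions and 1 V2 region. The regions inside the gene, from 17228825 to 17229564 (fold enrichment 3.13, -log10 q 7.77) and from 17229763 to 17230550 (4.54, 14.5), were in sg3 alone, and the first began 584 bases past the start. The noncoding gene VIM-AS1 (17214239 to 17229985) overlies the start. The region shared by the lists lay 11.2 kb below the gene, from 17216636 to 17217043 in sg3 (5.26, 17.7) and from 17216603 to 17217091 in V2 (5.50, 11.8), with summits at 17216855 and 17216854. The fourth sg3 region, from 17200963 to 17201753 (8.03, 24.6), had its summit in TRDMT1.

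TWIST2 had its regions inside the gene and none at its start. The sg3 list held 3, from 238863779 to 238864246 (fold enrichment 6.04, -log10 q 15.9), from 238864494 to 238866379 (5.04, 23.9) and from 238866534 to 238867013 (2.88, 3.69) on chromosome 2. The V2 list held 2, from 238864525 to 238864910 (4.11, 11.1) and from 238866373 to 238867012 (2.88, 2.69). All of these summits lay between 15.9 and 18.5 kb above the lower-coordinate end of the gene, where its transcription begins.

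TWIST1, ZEB2 and CDH2 lay in almost empty sequence. TWIST1 had no region within 50 kb in either list, and the nearest of either list was 590 kb from the gene. It was the 1 of the 10 genes without a region of either list within 50 kb (10%, exact 95% CI 0.253 to 44.5%), against 21.2% of protein-coding genes, and 2.08% of them were as far from a region as TWIST1. ZEB2 had 1 region in each list, 26.4 kb below the gene in sg3 (144357262 to 144357720, fold enrichment 4.46, -log10 q 12.7) and 26.3 kb below it in V2 (144357112 to 144357795, 9.54, 20.5), nearest to the gene QTMAN. CDH2 had 1 sg3 region 10.9 kb below the gene (27921363 to 27921953 on chromosome 18, 4.10, 4.66) and no V2 region. Above the starts of ZEB2 and CDH2, both at the higher-coordinate end, the nearest sg3 regions were 2114 kb and 1998 kb away. Of the 5 members of at least 80 kb (ZEB1, ZEB2, CDH1, CDH2 and CDH3), ZEB2 and CDH2 had no region of either list touching the gene, a share of 40.0% (5.27 to 85.3%) against 31.6% of the 4180 protein-coding genes of that length.

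**Figure D3:**
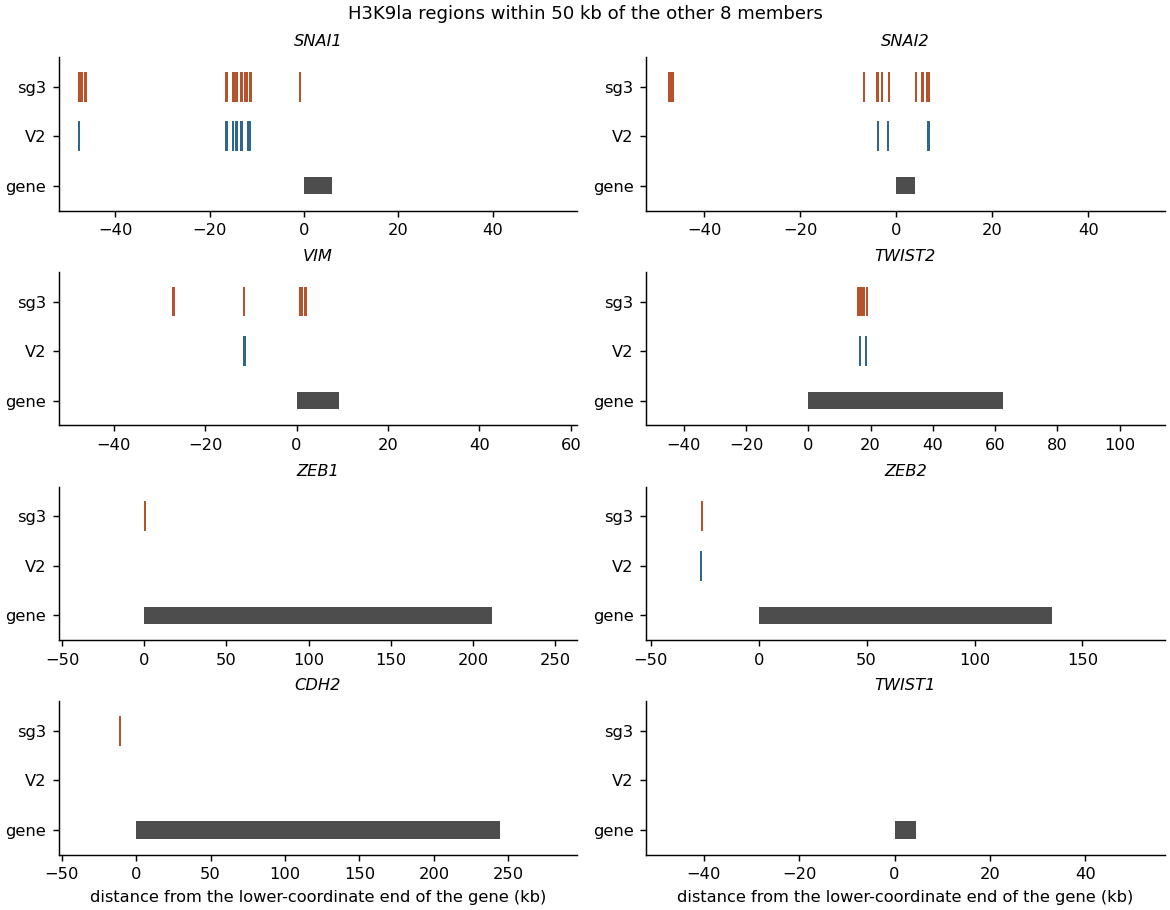
Positions of H3K9la regions within 50 kb of SNAI1, SNAI2, VIM, TWIST2, ZEB1, ZEB2, CDH2 and TWIST1, with the distance from the lower-coordinate end of each gene in kb and rows for the sg3 list, the V2 list and the gene; narrow regions are drawn at a minimum width so that they can be seen, and the scale differs between panels. The single ZEB1 region and those inside VIM are in the sg3 row alone, the SNAI1 group below the gene is in both rows, and TWIST1 has none.

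Ordered by the number of regions per 100 kb, the genes followed nearly the same sequence in both lists. In sg3, CDH3 led with 24.4, followed by CDH1 with 13.6, SNAI2 with 7.70, SNAI1 with 7.55, VIM with 3.66, TWIST2 with 1.85, ZEB2 with 0.424, ZEB1 with 0.321, CDH2 with 0.290 and TWIST1 with 0. In V2 the values were 21.8 for CDH3, 13.1 for CDH1, 5.67 for SNAI1, 2.89 for SNAI2, 1.23 for TWIST2, 0.914 for VIM, 0.424 for ZEB2 and 0 for the other 3. With 1 library per arm, neighbours in this order cannot be told apart by replicate error. A density at least as high as that of CDH3 was found for 0.846% of protein-coding genes in sg3 and 0.966% in V2, and for CDH1 these shares were 6.01% and 4.08%. The CDH3 window takes in the first part of CDH1, and 18 of its 46 sg3 regions and 18 of its 41 V2 regions were nearest to CDH1. Regions touching the gene itself numbered 20 for CDH3 and 19 for CDH1 in sg3, and 18 and 19 in V2. SNAI1 and SNAI2 lay at 17.3% and 16.8% in sg3, and at 15.7% and 28.4% in V2. The median protein-coding gene had 1.98 sg3 and 0.922 V2 regions per 100 kb. Neighbouring genes share regions, so these shares do not come from independent genes.

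**Figure D4:**
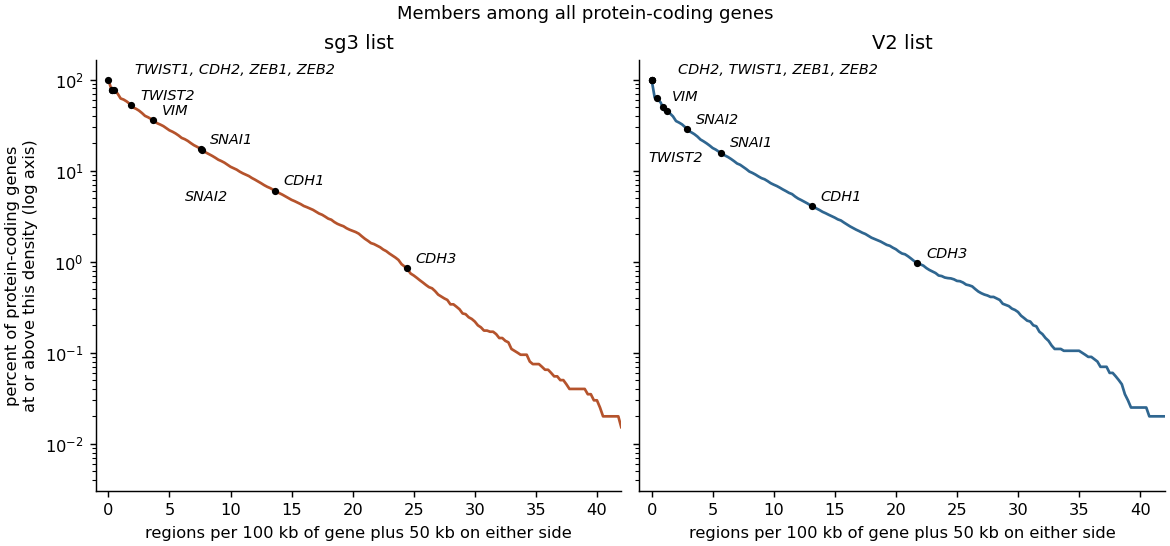
Percent of protein-coding genes (log axis) with at least a given number of regions per 100 kb, for the sg3 list (left) and the V2 list (right), with the 10 genes as points. CDH3, at 24.4 and 21.8 regions per 100 kb in a window that takes in the first part of CDH1, lies where under 1% of genes are as dense. ZEB1, ZEB2, CDH2 and TWIST1 lie at the left end of both curves.

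Nearly all V2 regions near these genes touched a region of the sg3 list. Overlap with sg3 by at least 1 base was found for 56 of the 57 (98.2%, exact 95% CI 90.6 to 99.96%), against 86.3% over the whole V2 list. In lists of equal length it was 91.2%, and when at least 50% of both regions had to overlap it was 63.2%. The whole-list shares under these 2 settings were not computed. Of the 75 sg3 regions 49 had a V2 partner (65.3%, 53.5 to 76.0%), against 52.4% over the whole sg3 list. The sg3 share was 73.5% (58.9 to 85.1%) in the window of CDH1 and CDH3 and 50% (29.9 to 70.1%) near the other 8 genes, and these intervals overlap. Regions of 1 locus lie close together and are not independent, so the intervals cover counting error only. The 26 sg3 regions without a partner had a median fold enrichment of 3.99 and a median width of 550.5 bases, and the 49 with one had 5.03 and 785 bases. In 33 cases 1 sg3 region matched exactly 1 V2 region, and the summits of these pairs were a median of 43.0 bases apart (interquartile range 16 to 63), as against 45.0 bases over 24667 such pairs in the whole lists.

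Beyond the 10 genes, 20 further genes of the epithelial side of EMT and 19 of the mesenchymal side were described. The lists were written from knowledge of the field, with earlier results of these data known. Of the epithelial list 18 were marked in both lists, EPCAM in sg3 alone and OVOL2, an epithelial transcription factor gene, in neither, so that sg3 marked 19 of 20 and V2 18 of 20, where they marked 47.2% and 28.7% of all protein-coding genes. The 18 include CDH13 (82626969 to 83800640), whose marking regions lay beyond its higher-coordinate end in both lists and need not mark its start. Of the mesenchymal list 6 were marked in both, 4 in sg3 alone and 9 in neither. These 10 of 19 genes in sg3 and 6 of 19 in V2 are near the shares over all genes, and so are the 4 of 10 marked in sg3 alone, against 39.7%. The median density was 8.51 sg3 and 6.22 V2 regions per 100 kb on the epithelial side, and 1.92 and 0.949 on the mesenchymal side, the latter near the medians of all protein-coding genes.

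Among the epithelial genes the strongest marking regions were those of GRHL3, a grainyhead factor of epidermal barrier formation (fold enrichment 17.1, -log10 q 120.4 in sg3). JUP, the junction protein plakoglobin, followed with 10.6 and 105.9. CTNND1, which encodes the cadherin-binding p120 catenin, had 15.4 and 101.5, and OVOL1, a repressor of mesenchymal genes, had 10.9 and 100.1. In the V2 list their -log10 q values were 60.6, 64.4, 75.8 and 67.6. The sg3 regions were wide at GRHL3 (24315413 to 24324338), OVOL1 (65785323 to 65796434) and JUP (41787383 to 41800662). That of JUP lay wholly above the gene, which ends at 41786711. Fold enrichment is a value at the summit, which in a wide region need not lie within 1 kb of a start. EPCAM, the epithelial adhesion molecule, had 2.84 and 9.25 in sg3 alone. The intracellular partners of E-cadherin, CTNNA1 and CTNNB1, were marked in both lists.

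Among the mesenchymal genes S100A4, ITGB1 and AXL had densities above the epithelial medians in both lists. S100A4, a calcium-binding protein gene (153543621 to 153545806), had 20.6 sg3 and 26.4 V2 regions per 100 kb around it. Its marking sg3 region (fold enrichment 12.7, -log10 q 73.0) ran from 153533303 to 153545105, so most of it lay below the gene. ITGB1, the integrin beta-1 gene, had 11.4 and 13.3 regions per 100 kb, and AXL, a receptor tyrosine kinase gene, had 9.12 and 11.9. SOX9, with 2.85 and 0.949, lay below the epithelial medians. The marking sg3 regions had fold enrichments and -log10 q of 7.57 and 60.2 at AXL, 8.34 and 49.5 at ITGB1, and 4.97 and 32.8 at SOX9. Each of these 3 genes had a V2 region too. The 4 marked in sg3 alone were KLF8 (10.6 and 26.2), ACTA2, the smooth muscle actin gene (4.50 and 19.3), ITGA5 (3.68 and 10.6) and FN1, the fibronectin gene (2.06 and 2.90). The ACTA2 region, from 88990831 to 88991381, crossed the higher-coordinate end of the gene. Genes that overlie a marking region were looked up for the 10 genes alone, so those of the pathway list may belong to a neighbour. The cadherin genes CDH6 and CDH11 and the transcription factor genes PRRX1 and GSC had no region within 50 kb in either list. These are 4 of the 19 genes, near the share of 21.2% over all protein-coding genes.

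**Figure D5:**
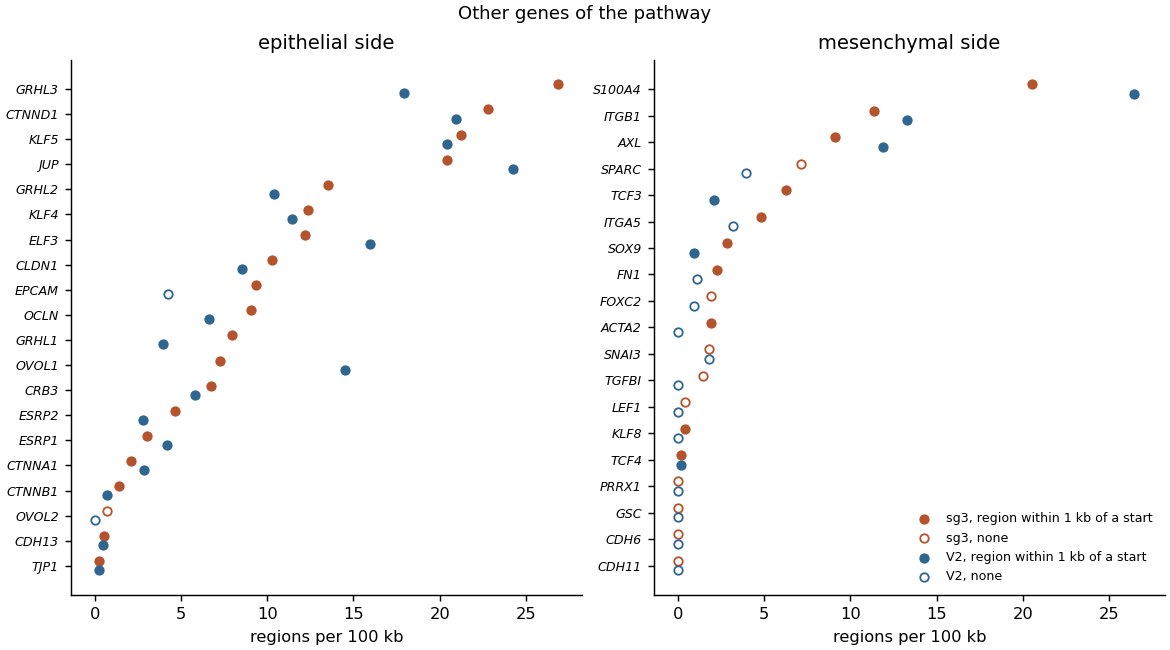
Number of H3K9la regions per 100 kb of the gene with 50 kb on either side, for 20 epithelial genes (left) and 19 mesenchymal genes (right) of EMT, in the sg3 and V2 lists. Filled points have a region within 1 kb of a listed start, or of either end of the gene where no start was listed, and open points have none. The marking regions of CDH13 lay beyond its higher-coordinate end in both lists. In sg3, 19 epithelial and 10 mesenchymal genes are filled, and in V2 18 and 6, where 47.2% and 28.7% of all protein-coding genes were marked.

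The labelled squamous cell type was set against marker genes, with the limit that a region does not measure expression. All 10 squamous markers, among them TP63, KRT14 and DSG3, were marked in sg3 and 8 in V2, against 47.2% and 28.7% of all protein-coding genes. Of 12 markers of fibroblasts and endothelium 3 were marked in sg3 (COL1A1, COL1A2 and CDH5) and 2 in V2 (COL1A1 and COL1A2). In both lists the marking regions of KRT14 and COL1A1 lay at the lower-coordinate end of the gene. Either end was counted where no start was listed, so a marking region need not lie at the start. COL1A1 had 24 sg3 and 10 V2 regions within 50 kb, CDH5 had 17 and 7, and VWF, which was not marked, had 17 and 27. COL3A1, DCN, LUM, PDGFRA and PECAM1 had none in either list. These are 5 of the 12 markers, where 21.2% of all protein-coding genes had none. Of 6 blood markers 2 were marked in sg3 and 1 in V2.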

How the data were processed

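H3K9la ChIP-seq of KYSE30 cells was analysed from 2 deposited peak lists, 1 per arm. The list for V2 is attached to that arm's input sample. The submitters' processing notes name MACS2 2.2.9.1, Bowtie2 2.5.1, SAMtools 1.18, FastQC 0.12.1, Trim Galore 0.6.10 and build hg38. The labels do not state the control library, command line, pooling or read depth. The deposited fold enrichment is a ratio at the summit, and the deposited -log10 p and -log10 q of each record are the authors' values. The smallest -log10 q was 2.02 in sg3 and 2.01 in V2. The deposited integer score equals 10 times -log10 q without decimals in 99.98% and 99.82% of records, and was not used.

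Records did not overlap within a list, so each was 1 region. Gene positions came from RefSeq GRCh38.p14, the same build. Transcription starts came from the RefSeq promoter table, which held 15813 of the 19974 genes. For other genes either end was used, and start positions named for them in the text as the lower or higher end are textbook knowledge. Overlaps were computed with Python 3.11.15, pandas 2.3.3 and scipy 1.17.1 and tested on simulated regions. Intervals are exact Clopper-Pearson at 95% and cover counting error only. No test between arms was made.

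The 10 genes, the gene lists and the settings were chosen with earlier results of these data known. All 10 genes were to be named with each region where a list had at most 5 near the gene, otherwise with the region nearest the start and the 2 of highest -log10 q. From each side of the pathway list up to 4 genes marked in 1 list and up to 4 marked in both were named by -log10 q. 1 gene of the mesenchymal list is not reported here and was left out of its counts. OVOL2, CTNNA1, CTNNB1, CDH6, CDH11, PRRX1, GSC and the cell type markers given by name were named after their values were seen. Alternatives changed the thresholds, list length, windows, merging and overlap.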

Additional observations from a re-analysis of the deposited data

How the results depend on the processing

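Of 46 values under alternative settings, 36 stayed within 1.5 times the reported count or inside the interval of the reported share, and 10 moved. The genes marked in V2 were CDH1 and CDH3 under every setting tried, joined by SNAI2 with windows of 2.5 and 5 kb. The genes marked in sg3 numbered 4 to 6. The number of V2 regions near the 10 genes fell from 57 to 35 at a -log10 q of at least 10. Merging regions within 1 kb left 26 sg3 and 25 V2 regions. Requiring an overlap of at least 50% of both regions lowered sharing to 63.2% in V2 and 48.0% in sg3, and a fold enrichment of at least 4 gave 88.1% for V2. The whole-list shares under these settings were not computed, so these values have no background beside them. Without CDH1 and CDH3, an alternative chosen after seeing the data, 26 sg3 and 13 V2 regions were left, with shared portions of 50% and 100.0%. No paired analysis was possible because each arm has 1 list. Read depth is unknown, so how much it limits the calls at weak sites such as SNAI1 and VIM could not be computed.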

Other observations

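The genes of the miR-200 family, microRNAs known to repress ZEB1 and ZEB2, lie in 2 clusters, and both had H3K9la regions close by in both lists. These loci were chosen after the regions of the 10 genes had been seen, and they are given as values. The mature sequences are from RefSeq (GRCh38.p14) with the seed, bases 2 to 8, in capitals. They form 2 seed groups, which differ by 1 base of the seed.
hsa-miR-200b-3p: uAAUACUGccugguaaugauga
hsa-miR-200c-3p: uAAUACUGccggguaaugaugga
hsa-miR-429: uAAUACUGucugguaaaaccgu
hsa-miR-200a-3p: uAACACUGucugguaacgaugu
hsa-miR-141-3p: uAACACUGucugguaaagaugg

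On chromosome 12 an sg3 region from 6963235 to 6964291 (fold enrichment 7.91, -log10 q 42) and a V2 region from 6963248 to 6964105 (4.95, 21.0) overlapped the stretch of MIR200C and MIR141 (6963699 to 6964191). On chromosome 1 the sg3 list had an 8504-base region from 1157670 to 1166173 (10.9, 96.9), which ended 931 bases before the stretch of MIR200B, MIR200A and MIR429 (1167104 to 1169087). The V2 list had 3 regions in the same place, the strongest from 1157722 to 1162789 (7.23, 54.9). Thus regions lay at or beside both clusters in both arms. They were sought within 10 kb of each cluster, and how often other microRNA loci have such regions was not computed.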
